A study of Rattus norvegicus with 18 samples.

Results

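The kinesins of the mitotic spindle described here are 6 motor genes, *Kif11*, *Kif15*, *Kifc1*, *Kif20a*, *Kif23* and *Kif2a*. They are 6 of the 13337 gene symbols in the annotation of the array, found there by symbol, and have 7 of its 22523 probes, 2 for *Kif11* and 1 for each other gene. Transcripts were measured in primary oligodendrocyte progenitor (OLP) cultures, prepared from brains of newborn Sprague-Dawley rats, that differentiate once the mitogens PDGF-AA and bFGF are withdrawn. Of the 18 arrays 3 are of cells at day 0, when mitogens were withdrawn, 6 are of controls, 3 each at day 1 and day 2, and 9 are of cells with PD169316, 3 each at day 1, day 2 and day 4. PD169316 is an inhibitor of the p38α and p38β kinases, used at 5 μM, and controls received its vehicle, DMSO. No day 4 control is labelled, and the sources do not state whether the 3 samples of a group were separate cultures, so that p-values reflect the spread among the arrays of a group, part or all of which can be technical. In a culture, more transcript per cell and more dividing cells cannot be told apart.

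Kinesins are motors that use ATP to walk along or take apart microtubules. During mitosis *Kif11* pushes the spindle poles apart by sliding antiparallel microtubules, *Kif15* was shown in human cells to help keep the spindle bipolar, and *Kifc1* walks to the minus end, focuses the poles and opposes *Kif11*. *Kif23* pairs with *Racgap1* in centralspindlin, the complex that bundles the midzone for cytokinesis, and *Kif20a* was shown in human cells to carry the chromosomal passenger complex with *Aurkb* to that midzone. *Kif2a* does not walk but removes tubulin from microtubule ends, at spindle poles and, in mouse neurons, in cells that no longer divide. OLPs divide in mitogens and leave the cell cycle as they become myelinating cells.

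The promoters are shown first, because the members fell into a group of 5 genes whose levels moved together and *Kif2a*, whose level did not, and the 5 promoters held letters that of *Kif2a* lacked. Whether these letters had a part in the levels was not tested. Each line gives the 150 bases before the annotated transcription start, 5′ to 3′ in the direction of the gene, from RefSeq on the GRCr8 build: *Kifc1* at chr20:5000779-5000928 (plus strand), *Kif11* at chr1:244536717-244536866 (plus), *Kif15* at chr8:131479254-131479403 (plus), *Kif20a* at chr18:26504272-26504421 (plus), *Kif23* at chr8:71320585-71320734 (minus) and *Kif2a* at chr2:40164781-40164930 (minus). Capitals mark matches, on either strand, to TTTGAA or, in a second form, TTTAAA, the letters of the cell cycle genes homology region (CHR), and to CCAAT, the box bound by NF-Y, so that a match on the other strand is in capitals as its reverse complement.
Kifc1: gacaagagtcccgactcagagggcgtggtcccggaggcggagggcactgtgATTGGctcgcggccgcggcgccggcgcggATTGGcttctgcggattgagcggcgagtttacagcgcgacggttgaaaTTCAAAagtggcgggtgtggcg
Kif11: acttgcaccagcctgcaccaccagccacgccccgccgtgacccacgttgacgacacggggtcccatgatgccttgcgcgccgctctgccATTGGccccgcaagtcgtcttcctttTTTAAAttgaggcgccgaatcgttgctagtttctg
Kif15: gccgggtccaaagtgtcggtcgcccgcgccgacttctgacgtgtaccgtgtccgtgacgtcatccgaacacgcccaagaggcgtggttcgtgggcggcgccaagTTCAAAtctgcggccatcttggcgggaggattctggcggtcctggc
Kif20a: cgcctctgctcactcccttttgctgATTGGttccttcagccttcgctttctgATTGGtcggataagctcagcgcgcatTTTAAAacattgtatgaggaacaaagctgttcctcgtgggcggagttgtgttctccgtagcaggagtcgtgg
Kif23: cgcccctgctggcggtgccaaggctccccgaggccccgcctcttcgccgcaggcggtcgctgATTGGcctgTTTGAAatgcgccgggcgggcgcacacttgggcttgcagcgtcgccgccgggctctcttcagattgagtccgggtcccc
Kif2a: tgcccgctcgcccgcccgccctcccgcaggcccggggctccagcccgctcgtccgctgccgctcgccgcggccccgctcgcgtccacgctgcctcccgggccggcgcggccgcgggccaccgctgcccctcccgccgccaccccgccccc

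In the window of 300 bases, from 250 before to 50 after the start, 5 of the 6 members held a CHR-type match and 4 held it together with a CCAAT match. *Kifc1* had TTTGAA 22 bases before the start with CCAAT 70 and 99 bases before it, *Kif11* had TTTAAA at 35 with CCAAT at 61, and *Kif23* had TTTGAA at 79 with CCAAT at 88. In *Kif20a* TTTAAA lay 72 bases before the start and CCAAT 98, 125 and 220 bases before it. *Kif15* had TTTGAA at 46 and 249 bases and no CCAAT, and *Kif2a* had none of these letters in a window of 83% G and C, where the other members had 50.7% to 67.7%. The median G and C content of all windows was 51.7%. Of all 33469 promoter windows, 28.3% held a CHR-type match, 37.5% held CCAAT and 11.3% held both. No matches overlapped, and a match is a description of the letters, not a site of binding.

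**Figure D1:**
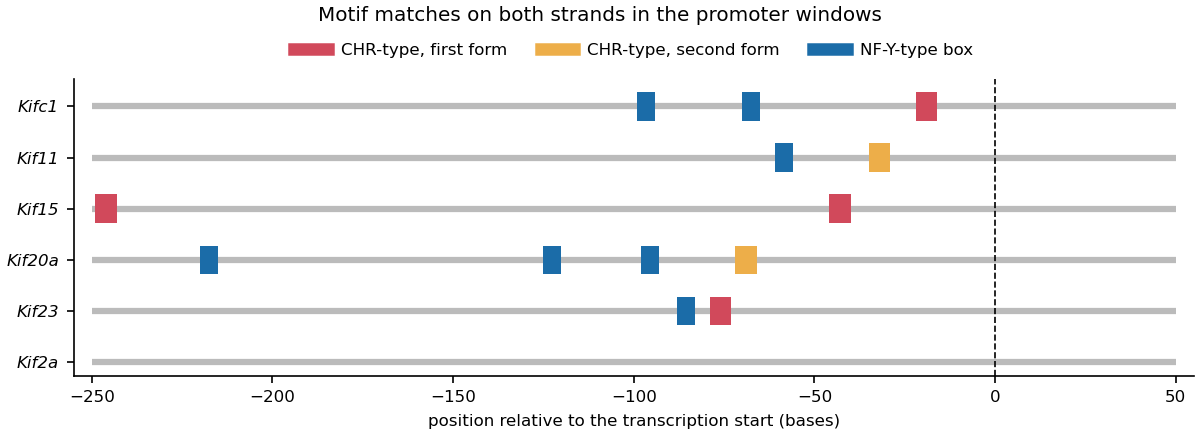
Position of motif matches in the promoter windows of the 6 kinesin genes, in bases from the transcription start (dashed line). Red and yellow bars are the 2 CHR-type forms and blue bars the CCAAT box; *Kif2a* has no bar, and *Kif15* has no blue bar.

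Values below are log2 intensities after background correction and quantile normalization with an offset of 16, and differences are given on that scale with the standard error (SE). A probe was detected at a detection p under 0.01 against the negative control beads, and the 10574 probes detected on every array of some group were tested. Each array detected between 9789 and 10773 probes. Every adjusted p is from 1 limma model of the 18 arrays, adjusted by Benjamini-Hochberg over the probes tested, and a probe was called at an adjusted p under 0.05. All 7 kinesin probes passed the filter. The probes of *Kifc1*, *Kif15*, *Kif20a*, *Kif23* and *Kif2a* and the first of *Kif11* were detected on all 18 arrays, while the second *Kif11* probe was detected on 6 and passed only through day 2 PD169316. A level was the mean of 24 to 59 beads, and the highest bead standard error was 5.92% of the intensity.

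Some libraries stood apart. Day 0 replicate 1 was the lowest of the 18 arrays for *Kifc1*, the first *Kif11* probe, *Kif15*, *Kif20a* and *Kif23*. The library labelled day 2 control 3 had a correlation of 0.986 to 0.987 with the other day 2 controls and of up to 0.997 with day 2 PD169316 libraries. For the library labelled day 2 PD169316 1 these were 0.980 to 0.983 with the other PD169316 libraries of that day and up to 0.994 with controls. Each of the pair was thus closer to libraries of the other group than to those of its own label and goes against it, and whether their labels had been exchanged was not tested. The directions between the day 2 groups are those of the labels. Kinesin differences between the day 2 groups, between day 2 and day 1 controls and between the effects at the days are also given without these libraries. So is that of *Kif20a* between day 4 and day 2 PD169316. Other results with day 2 groups, those against day 0 and those of lists and markers included, are given with these libraries only.

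After 1 day of PD169316 the transcripts of 5 of the 6 spindle kinesins were higher than in control cultures, by 2.05-fold to 2.77-fold, and that of *Kif2a* was not called. By probe, 5 of 7 were called higher, where 6.58% of all probes tested were, and the median difference of the 7 was 1.24 against -0.004 over all probes. The study lists the 5 genes that rose among those raised on these same arrays, so the count is not independent evidence of its direction. Of the probes tested, 11.1% were called in either direction and 41.5% did not overlap between the groups.

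The motors that set up the bipolar spindle rose together. *Kif11*, which drives the poles apart, stood at 8.08, 8.02 and 8.06 in day 1 control replicates 1 to 3 and at 9.46, 9.67 and 9.42 with PD169316. The lowest treated array lay above every control array, and the difference was 1.46 (SE 0.19, adjusted p = 1.4e-04, 2.75-fold). *Kif15* stood at 6.92, 6.51 and 6.69 in controls and at 7.99, 7.84 and 7.40 with PD169316, again without overlap, and differed by 1.04 (SE 0.18, adjusted p = 0.0017). On the intensities as deposited, with no correction or normalization, the difference of *Kif15* was 0.62 (adjusted p = 0.092), and the call was lost. *Kifc1*, the minus-end motor that works against *Kif11*, stood at 9.03, 9.10 and 9.20 in controls and at 10.47, 10.68 and 10.60 with PD169316. Its difference, 1.47 (SE 0.19, adjusted p = 1.3e-04, 2.77-fold), was close to that of *Kif11*.

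The second *Kif11* probe was dim, at 4.92, 5.27 and 4.58 in controls and at 5.32, 5.50 and 5.40 with PD169316. It was detected on none of the 3 control arrays and on 1 of the 3 treated arrays, so no fold is given for it (adjusted p = 0.078). Without day 1 control replicate 2 it was called. The 2 probes of *Kif11* thus gave different calls, with the brighter probe carrying the change.

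The midzone motors rose as well. *Kif20a* stood at 7.70, 7.63 and 7.95 in controls and at 8.86, 9.02 and 9.12 with PD169316, a difference of 1.24 (SE 0.17, adjusted p = 1.6e-04, 2.36-fold). *Kif23*, the motor subunit of centralspindlin, stood at 6.96, 6.47 and 6.94 in controls and at 8.12, 8.22 and 8.05 with PD169316. It differed by 1.34 (SE 0.16, adjusted p = 7.7e-05, 2.53-fold), and for both midzone motors the groups lay apart. *Kif2a*, the microtubule depolymerase, stood at 6.66, 6.65 and 6.86 in controls and at 6.42, 6.58 and 6.70 with PD169316. These overlapped, and the difference of -0.15 had a 95% interval of -0.44 to 0.14 (adjusted p = 0.52).

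**Figure D2:**
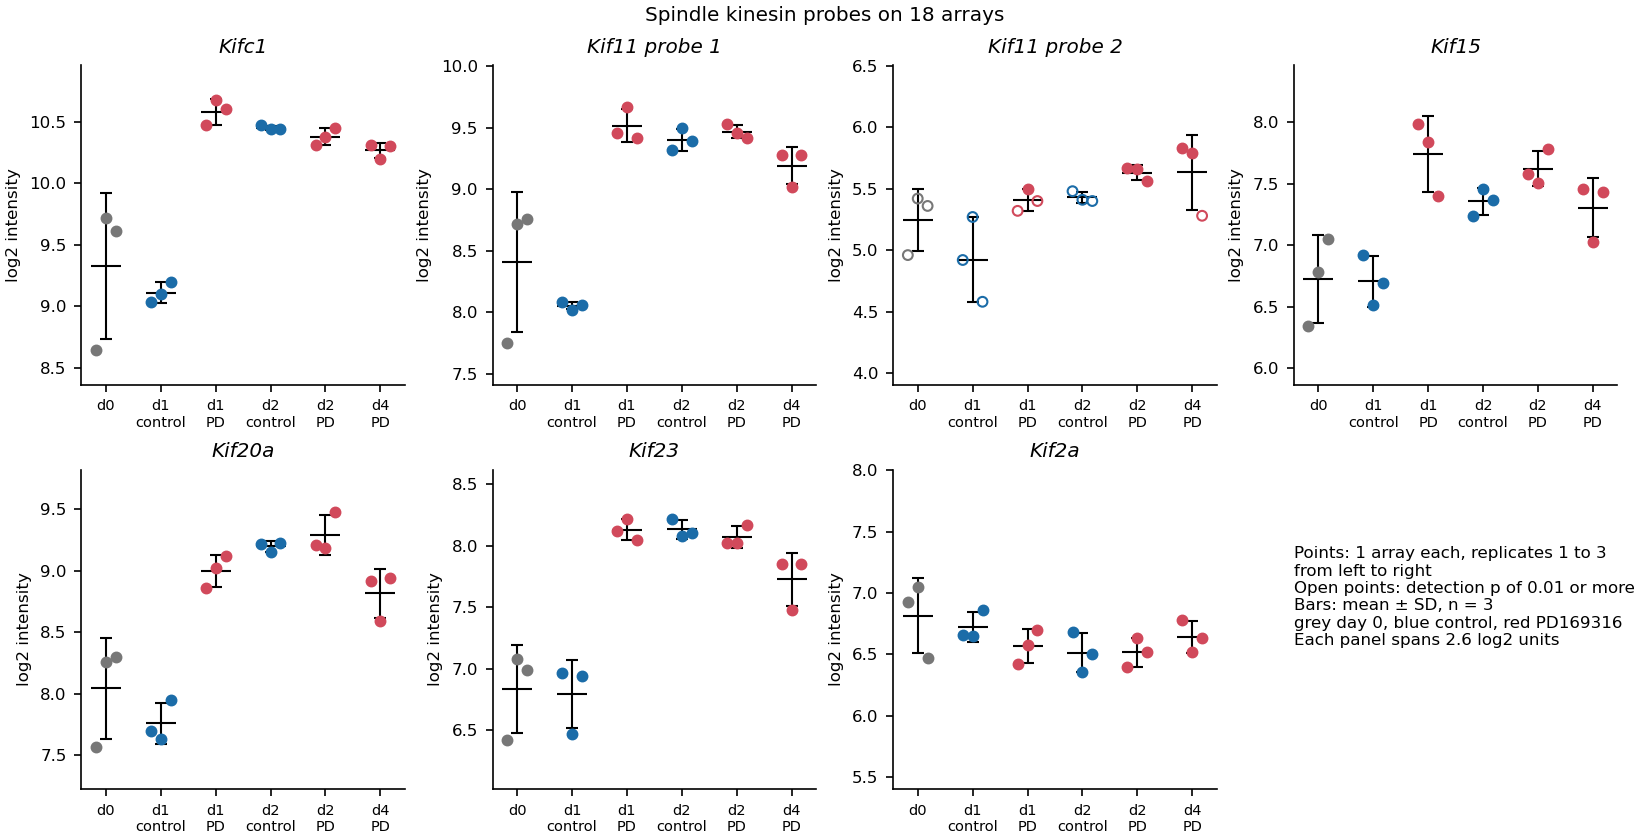
Log2 intensity of each of the 7 kinesin probes on the 18 arrays, 1 point per array with the mean and SD of each group of 3; open points were not detected. For *Kifc1*, the first *Kif11* probe, *Kif15*, *Kif20a* and *Kif23* the day 1 PD169316 arrays sit above the day 1 control arrays, and the *Kif2a* arrays span 0.69 log2 units in all.

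At day 2 none of the 7 kinesin probes was called between PD169316 and control, and neither was any of the 10574 probes (0% called, smallest adjusted p 0.888), while 468 had an unadjusted p under 0.05. *Kif11* stood at 9.32, 9.50 and 9.39 in day 2 controls and at 9.53, 9.46 and 9.42 with PD169316, with overlap. Its difference was 0.07 with a 95% interval of -0.34 to 0.47. *Kifc1* stood at 10.47, 10.44 and 10.44 in controls and at 10.31, 10.38 and 10.45 with PD169316, and differed by -0.07 (95% interval -0.47 to 0.34). *Kif15* stood at 7.24, 7.46 and 7.37 in controls and at 7.58, 7.51 and 7.78 with PD169316. These did not overlap, as for 6.34% of all probes, yet the interval of the difference of 0.27 ran from -0.12 to 0.66 (adjusted p = 0.89). The differences of *Kif20a*, *Kif23* and *Kif2a* were 0.09, -0.06 and 0.00, and the highest upper bound among these 3 was 0.44. For *Kifc1*, the first *Kif11* probe, *Kif15*, *Kif20a* and *Kif23* the interval at day 2 ended below the day 1 difference of the same probe. The error of the day 1 difference does not enter here, and for *Kif15* the day 1 interval of 0.64 to 1.43 overlapped that at day 2.

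Without the 2 day 2 libraries that stood apart, 2505 of 10574 probes (23.7%) were called between PD169316 and control at day 2, but none of the 7 kinesin probes. The differences were then 0.03 for the first *Kif11* probe, 0.29 for *Kif15* (adjusted p = 0.42), -0.04 for *Kifc1*, 0.14 for *Kif20a*, -0.05 for *Kif23* and 0.05 for *Kif2a*. Those libraries were picked by their correlations, so the count of all probes is a description and not an independent test.

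The PD169316 effect differed between the days for 4 of the 7 kinesin probes, all with a smaller effect at day 2, where 2.33% of all probes were called in that direction and 3.85% in either. The effect at day 2 minus that at day 1 was -1.54 for *Kifc1* (SE 0.27, adjusted p = 0.0043), -1.39 for the first *Kif11* probe (SE 0.27, adjusted p = 0.0085), -1.40 for *Kif23* (SE 0.23, adjusted p = 0.0029) and -1.15 for *Kif20a* (SE 0.23, adjusted p = 0.011). That of *Kif15* was -0.77 (adjusted p = 0.12). On the deposited intensities none of these was called, and their adjusted p ran from 0.14 for *Kifc1* to 0.35 for *Kif20a* among the 4.

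The levels of the control cultures moved between the days. From day 1 to day 2 of differentiation without inhibitor, the transcripts of the same 5 genes rose by 1.57-fold to 2.72-fold, and the day 2 controls lay near the day 1 PD169316 arrays (*Kif11* means 9.40 ± 0.09 and 9.52 ± 0.14, SD, n = 3). *Kif20a* rose most, from 7.70, 7.63 and 7.95 at day 1 to 9.22, 9.15 and 9.23 at day 2, by 1.44 (SE 0.17, adjusted p = 5.8e-05). *Kif23* rose by 1.34 (SE 0.16, adjusted p = 9.1e-05), *Kif11* by 1.35 (SE 0.19, adjusted p = 3.2e-04) and *Kifc1* by 1.34 (SE 0.19, adjusted p = 3.4e-04). *Kif15* rose by 0.65 (adjusted p = 0.023) and lost the call with the deposited intensities, without day 1 control replicate 2 or 3, or without day 2 control replicate 2. *Kif2a* differed by -0.21 (adjusted p = 0.33). In all 6 probes were called higher, where 8.42% of all probes were, and the 6th was the dim *Kif11* probe at an adjusted p of 0.049, which was detected in neither group and lost the call in 20 of 27 other settings. Without the 2 day 2 libraries that stood apart, the 5 genes stayed called, from 0.65 for *Kif15* to 1.43 for *Kif20a*. This comparison shares the day 1 controls with that of PD169316 at day 1.

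Against day 0, none of the 7 kinesin probes was called in day 1 control cultures, where 27.1% of all probes were. Day 0 itself was spread: *Kifc1* stood at 8.64, 9.72 and 9.61, *Kif11* at 7.75, 8.72 and 8.76, and *Kif20a* at 7.57, 8.26 and 8.30, with replicate 1 low each time. *Kif23* at 6.42, 7.08 and 6.99 and *Kif15* at 6.34, 6.78 and 7.05 had the same low array, and *Kif2a* at 6.93, 7.05 and 6.47 did not. Without day 0 replicate 1, the day 1 controls were called lower for *Kif11* by the first probe (-0.69, adjusted p = 2.9e-04), *Kifc1* (-0.55, adjusted p = 4.9e-04) and *Kif20a* (-0.52, adjusted p = 0.012), where 10.5% of all probes were called lower.

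Later groups stood above day 0. Day 2 controls were called higher for 5 of 7 probes (20.6% of all probes), day 1 PD169316 for 5 (16.2%) and day 4 PD169316 for 5 (23.2%), in each case *Kifc1*, the first *Kif11* probe, *Kif15*, *Kif20a* and *Kif23*. These 3 comparisons share the day 0 arrays. *Kif23* differed from day 0 by 1.31 in day 2 controls, 1.30 in day 1 PD169316 and 0.90 in day 4 PD169316 (adjusted p at most 3e-04). Without day 0 replicate 1 those differences were 1.10, 1.09 and 0.70, and *Kif15* was no longer called in day 2 controls (0.44, adjusted p = 0.069) or day 4 PD169316 (0.39, adjusted p = 0.089). At day 4 *Kif15* also lost the call without day 4 PD169316 replicate 1 (0.51, adjusted p = 0.058) or 3 (0.52, adjusted p = 0.054). On the deposited intensities fewer of these calls held. Day 2 controls lost those of the first *Kif11* probe (0.47, adjusted p = 0.098) and *Kif15* (0.09, adjusted p = 0.70), and day 1 PD169316 those of *Kif15* (0.36, adjusted p = 0.12) and *Kif20a* (0.44, adjusted p = 0.070). Day 4 PD169316 kept 2 calls, *Kifc1* and *Kif23*, and *Kif23* differed from day 0 by 0.55, 0.57 and 0.46 in the 3 groups there. Without normalization more probes were called lower than higher against day 0. Of all 10574 probes, 4235 were lower and 462 higher in day 2 controls. These counts were 3468 and 215 in day 1 PD169316 and 2354 and 1164 in day 4 PD169316.

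Markers of cell types were called in the same comparisons with day 0, as were many of all 10574 probes. In either direction 4464 probes were called in day 2 controls, 3296 in day 1 PD169316 and 5357 in day 4 PD169316. Those called higher were 20.6%, 16.2% and 23.2% of all probes. In day 2 controls 7 of 8 myelin and 2 of 3 fibroblast markers were higher, and 5 of 5 progenitor and 6 of 10 neuron markers were lower. In day 1 PD169316 3 of 8 myelin markers were higher, and 5 of 5 progenitor, 5 of 10 neuron, 3 of 6 microglia and 2 of 7 astrocyte markers were lower. In day 4 PD169316 all 8 myelin and all 3 fibroblast markers were higher, 5 of 5 progenitor, 5 of 6 microglia and 5 of 10 neuron markers were lower, and of 7 astrocyte markers 3 were higher and 3 lower. Their part in the kinesin differences was not tested.

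At 4 days with PD169316, for which no control is labelled, the means of the 5 genes lay below those at day 1 and day 2 with PD169316, and 1 of these differences was called. *Kifc1* stood at 10.31, 10.20 and 10.30, *Kif11* at 9.28, 9.02 and 9.28, and *Kif23* at 7.85, 7.48 and 7.85. *Kif20a* stood at 8.92, 8.59 and 8.94 at day 4 and at 9.21, 9.19 and 9.48 at day 2 with PD169316, a difference of -0.47 (SE 0.17) whose adjusted p was just under 0.05 and which lost the call in 18 of 28 other settings. It was the 1 of 7 probes called lower, where 13.1% of all probes were, and without the 2 day 2 libraries that stood apart it was -0.52 (adjusted p = 0.045). Against day 1 PD169316 none was called, where 43.8% of all probes were, and the differences of the 5 kinesins ran from -0.43 for *Kif15* to -0.19 for *Kif20a*. Without day 0 replicate 1, whose spread enters the model, 4 probes were called lower in that comparison, those of *Kifc1*, *Kif15* and *Kif23* and the first of *Kif11*, where 24.4% of all probes were. Single calls there also came without day 1 control replicate 2 (*Kif23*, -0.40, adjusted p = 0.039) and without day 1 PD169316 replicate 3 (*Kif15*, -0.60, adjusted p = 0.021).

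**Figure D3:**
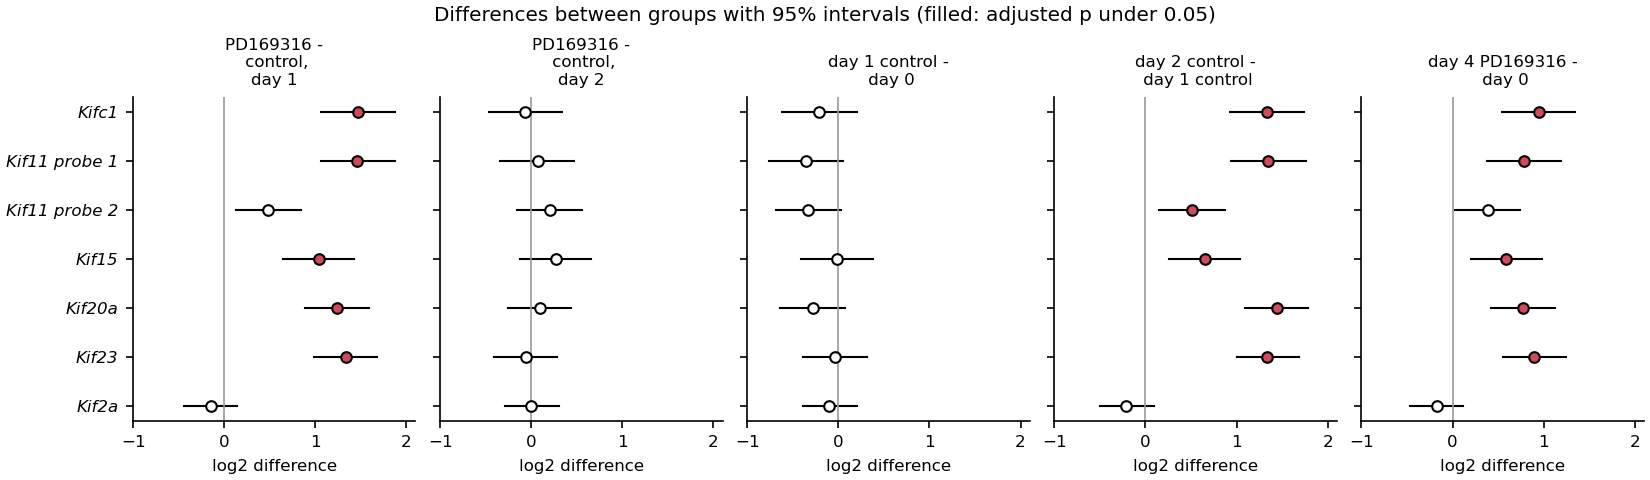
Log2 difference of each kinesin probe in 5 comparisons, with the 95% interval; filled points have an adjusted p under 0.05. The points of 5 genes lie to the right of 0 for PD169316 against control at day 1 (1.04 to 1.47) and for day 2 against day 1 controls (0.65 to 1.44), and their intervals include 0 for PD169316 against control at day 2.

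In order of group means under the reported normalization, day 1 control was lowest and day 0 next for *Kifc1*, both *Kif11* probes, *Kif15*, *Kif20a* and *Kif23*, and no difference between these neighbours was called. On the deposited intensities *Kif20a* was called lower in day 1 controls than at day 0 (-0.51, adjusted p = 0.046). So were 2884 of all 10574 probes there, with 148 called higher. With array weights the first *Kif11* probe was called lower (-0.49, adjusted p = 0.027). Day 4 PD169316 came next in the order of means for *Kifc1*, the first *Kif11* probe, *Kif15*, *Kif20a* and *Kif23*, but not for the dim probe. On the deposited intensities day 4 PD169316 instead stood above day 2 control for *Kifc1*, the first *Kif11* probe and *Kif15* and above day 1 PD169316 for *Kif20a*. The top of the order was day 1 PD169316 for *Kifc1*, the first *Kif11* probe and *Kif15*, day 2 PD169316 for *Kif20a*, day 4 PD169316 for the dim probe and day 2 control for *Kif23*. For *Kif23* it was day 1 PD169316 on the deposited intensities and with 75th percentile scaling, and for the dim probe it was day 2 PD169316 with that scaling. For the day 2 pair among these groups no difference was called. *Kif2a* ran from a mean of 6.82 ± 0.31 at day 0 to 6.52 ± 0.16 in day 2 controls (SD, n = 3). That step was -0.30 (adjusted p = 0.092), and its size depended on day 0 replicate 3, the low array of *Kif2a* at day 0. Without that array *Kif2a* was called lower than day 0 in day 2 controls (-0.48, adjusted p = 0.0073), in day 1 PD169316 (-0.42, adjusted p = 0.019) and in day 4 PD169316 (-0.35, adjusted p = 0.029). On the deposited intensities it was called lower in day 2 controls (-0.41, adjusted p = 0.011) and in day 1 PD169316 (-0.40, adjusted p = 0.016). Of all 10574 probes, 4235 were called lower and 462 higher in the first of these comparisons without normalization. In the second, 3468 were called lower and 215 higher.

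The 5 kinesins varied together over the 18 arrays, with Pearson's r from 0.86 to 0.98 in the 10 pairs and from 0.51 to 0.92 once group means were removed. *Kif2a* had r of -0.62 to -0.51 with them, and -0.43 to 0.11 within groups. These values describe arrays that share their groups and their normalization. Day 0, with its low replicate 1, had the widest spread of any group for each of the 5 kinesins. For *Kifc1* its SD was 0.60, where the other groups had 0.02 to 0.11. How far the values within groups rest on that array was not tested. The probes most like each member over the 18 arrays were, for *Kif11*, *Ccna2* (0.993, cyclin A), *Aspm* (0.992) and *Cdk1* (0.990). For *Kifc1* they were *Ccna2* (0.988), *Ube2t* (0.984) and *Kif11* itself (0.984), and for *Kif15*, *Spc25* (0.951), *Wee1* (0.942) and *Bub1* (0.938). *Kif20a* was closest to *Cdk1* (0.977), *Tpx2* (0.974) and *Nuf2* (0.969), and *Kif23* to *Cenpt* (0.977), *Tpx2* (0.973) and *Mxd3* (0.971). For *Kif2a* the highest values were lower, with *Zfp46* (0.753), *Marveld1* (0.743) and *Dynll1* (0.714).

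At day 1 other kinesins of mitosis were higher with PD169316 as well, and those of transport were mostly not called. Of 5 further mitotic kinesins on the array 3 were measured, and all 3 were higher with PD169316: *Kif20b* by 1.19 (SE 0.26, adjusted p = 0.0080), *Kif22*, a motor on chromosome arms, by 1.08 (SE 0.15, adjusted p = 2.9e-04) and *Kif2c*, the depolymerase at centromeres, by 1.06 (SE 0.18, adjusted p = 0.0013). *Kif22* too is among the genes the study lists as raised. *Kif2c* and *Kif2a* belong to the same family of depolymerases, with differences of 1.06 and -0.15, which were not tested against each other. Of 13 measured transport kinesins and light chains, 1 was called, *Kifap3*, the adaptor of the kinesin of cilia, at 0.28 (SE 0.07, adjusted p = 0.015), and their median was 0.03. That call was lost on the deposited intensities and without day 1 control replicate 3 or day 1 PD169316 replicate 1 or 2. *Kif5b*, the conventional transport kinesin, was at -0.19 (adjusted p = 0.40) and *Kif1b*, a motor of mitochondria and vesicles, at -0.28 (adjusted p = 0.48). At day 2 no member of either list was called, and neither was any of the 10574 probes tested, so this does not set the lists apart.

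The partners of the midzone motors rose with them at day 1, all 8 measured of 9 on the array. *Aurkb*, the kinase of the chromosomal passenger complex, rose by 1.69 (SE 0.17, adjusted p = 1.3e-05), *Racgap1*, the centralspindlin partner of *Kif23*, by 1.41 (adjusted p = 3.9e-04) and *Prc1*, which bundles midzone microtubules, 2.37-fold (adjusted p = 5.9e-04). *Plk1* rose by 1.23, *Ect2*, which activates RhoA for the cleavage furrow, by 1.14 and *Cdca8* by 1.13. Of 18 genes of spindle assembly and the poles 9 rose and 1 fell, with a median of 0.39. Of all probes tested, 6.58% were called higher at day 1. *Nusap1* rose by 1.48, *Cdk1*, the mitotic kinase, by 1.44, *Aspm* by 1.42, *Tpx2*, an activator of Aurora A, by 1.39, *Hmmr* by 1.22 and *Dlgap5* by 0.74, and *Haus8*, an augmin subunit, fell by 0.53. In controls from day 1 to day 2, 7 of the 8 midzone partners, 9 of the 18 pole genes and all 3 further mitotic kinesins rose. Of all probes 8.42% were called higher there. Of the 13 transport kinesins and light chains none rose and 1 fell, *Kifc3* (-0.72, adjusted p = 0.023). A CHR-type match was in the promoter windows of all 8 midzone partners for which windows were counted, 14 of 22 pole genes, 5 of 8 further mitotic kinesins and 1 of 21 transport kinesins and light chains. Of all promoter windows 28.3% held one. These windows include those of listed genes that were not measured, so the counts do not cover the same genes as the differences.

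**Figure D4:**
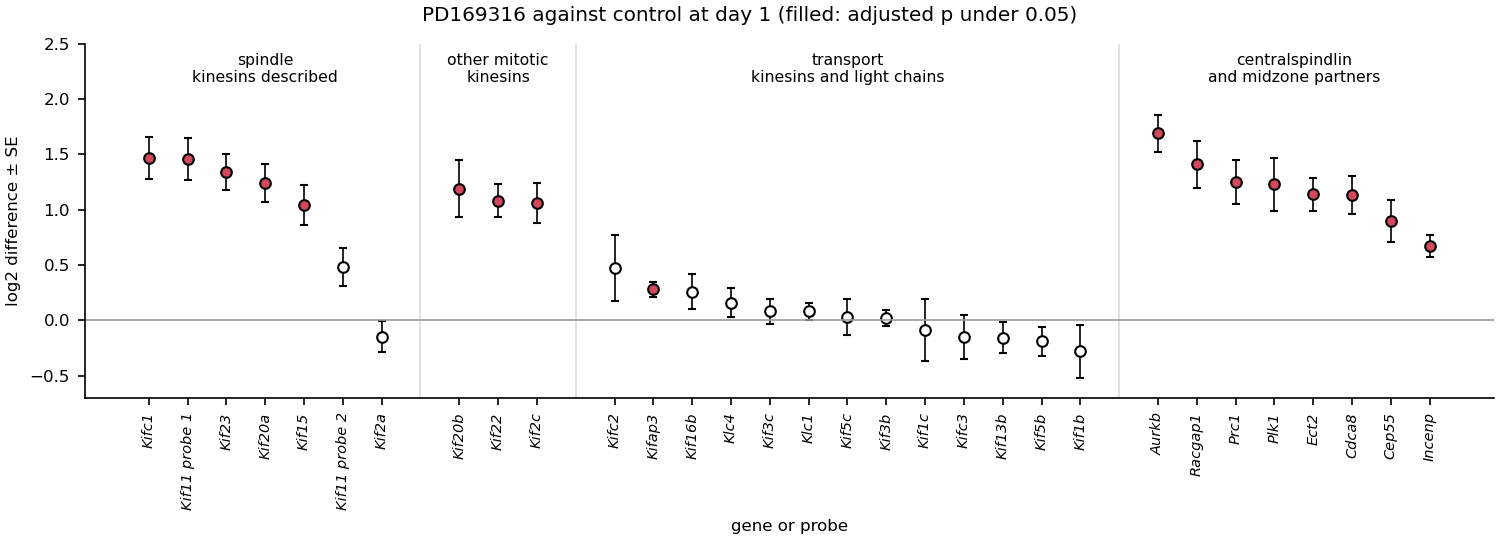
Log2 difference, PD169316 against control at day 1, with its SE, for the 7 spindle kinesin probes and the measured genes of 3 lists; filled points have an adjusted p under 0.05. All 3 further mitotic kinesins and all 8 midzone partners are filled, against 1 of 13 transport kinesins and light chains. Of all probes tested, 11.1% were called in either direction.

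Markers of the cultures moved along with these comparisons. Of all 10574 probes, 1171 (11.1%) were called between PD169316 and control at day 1, and 1839 between day 2 and day 1 controls. The 5 progenitor markers and 8 myelin markers on the array were all measured, with summed levels of 65600 to 67900 and 48700 to 51200 at day 0 and of 49800 to 52500 and 72800 to 76200 in day 1 controls (linear scale). At day 1 PD169316 lowered 3 of 5 progenitor markers, 2 of 8 myelin markers and 1 of 7 astrocyte markers and raised 1 of 10 neuron markers, and none of 6 microglia, 3 fibroblast or 2 endothelial markers was called. Summed astrocyte levels were 41400 to 44100 in control and 31300 to 33200 in treated arrays, and summed neuron levels 9090 to 9680 and 10900 to 11600. Microglia levels summed to 10900 to 11800 and 10700 to 13500, fibroblast levels to 503 to 972 and 724 to 1050, and endothelial levels to 260 to 281 and 217 to 221. From day 1 to day 2 in controls, 3 of 8 myelin markers (median 0.83), 2 fibroblast markers and 1 microglia marker rose, and 2 of 5 progenitor, 3 neuron and 2 astrocyte markers fell. The defining markers *Ptprc* and *Cx3cr1* of microglia, *Cdh5* and *Flt1* of endothelium and *Col1a1* and *Dcn* of fibroblasts did not pass the detection filter. The part of other cell types in the kinesin differences was not tested.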

How the data were processed

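Total RNA of 18 samples was labelled as cRNA and hybridized by the authors to Illumina rat whole-genome arrays. The authors deposited linear intensity values, the mean of the beads of each probe, neither background-subtracted nor normalized, and the detection p-value deposited with each compares it with the negative control beads. The value table of the series equals these intensities for all 405414 values. The methods give a threshold of 1.25-fold and a p under 0.05 after the empirical Bayes correction of FlexArray, and the normalization is not given in the sources used here.

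Background was corrected using the detection p-values, followed by quantile normalization and log2 with an offset of 16, as in neqc of limma 3.58.1 (R 4.3.3). A probe was kept where its detection p was under 0.01 on every array of some group, 10574 of 22523. Of the 22523 probes, 13793 carry a gene symbol. The 6 group means were fitted in 1 limma model without covariates (12 residual and 3.18 prior degrees of freedom) and adjusted over the probes kept. The number of arrays limits the precision. Python 3.11.15, pandas 2.3.3 and matplotlib 3.10.9 were used for promoters and figures.

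Named were all probes of the 6 members, the measured further mitotic kinesins, up to 6 genes of each other list with the largest change among those called at day 1, and the 3 probes most like each member. A listed gene is represented by its kept probe of highest mean. *Kif5b*, *Kif1b*, *Kifc3* and *Haus8* were named after their values were seen. The members, lists and motifs were chosen with earlier results of these data known. All 6 members matched a promoter in the RefSeq table. The procedure was tested on simulated data. Alternatives were no background correction, the deposited values, scaling to the 75th percentile, other filters, thresholds and offsets, array weights, a fit of the compared arrays alone, a block for the replicate number and leaving out libraries. The cell counts and qPCR of the study were not analysed here.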

Additional observations from a re-analysis of the deposited data

Results flagged for a closer look

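The PD169316 effect on the spindle kinesins differed between day 1 and day 2 by a test of the difference itself, in the model of all 18 arrays. The effect at day 2 minus that at day 1 was -1.54 for *Kifc1*, -1.39 for the first *Kif11* probe, -1.40 for *Kif23* and -1.15 for *Kif20a* on the log2 scale. Without the libraries labelled day 2 control 3 and day 2 PD169316 1, 4 probes were called, *Kifc1* at -1.51, the first *Kif11* probe at -1.43, *Kif23* at -1.39 and *Kif20a* at -1.10. The share of all probes called in that fit is not given here. With all 18 arrays it was 2.33% in this direction. On the deposited intensities none of the 4 was called, and 18 of all 10574 probes were.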

How the results depend on the processing

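The 70 differences of the 7 kinesin probes were recomputed under up to 29 other settings, 1985 values in all, of which 1869 kept their direction and side of the threshold, 58 lost the call, 34 gained it and 24 turned. At day 1, *Kifc1*, the first *Kif11* probe, *Kif20a* and *Kif23* kept the call in all 29 settings and *Kif15* in 28. The causes of the changes below were not tested. The count of kinesin probes called in day 4 against day 1 PD169316, 0 as reported, was 2 without background correction, 3 with only the arrays compared, 2 with array weights, 1 with an offset of 50 and 2 at the methods' fold criterion taken here with an unadjusted p under 0.05. In day 1 control against day 0 it was 1 on the deposited intensities and likewise 1 under array weights, in day 4 PD169316 against day 0 it was 2 with the deposited values, and for the difference between the days it was 0 with the deposited values. In day 4 against day 2 PD169316 it was 0 with the deposited values, 75th percentile scaling, no filter, only the arrays compared, or an adjusted p under 0.01. Leaving out 1 library at a time, the count ran from 0 to 3 for day 1 control against day 0, from 0 to 4 for day 4 against day 1 PD169316 and from 0 to 2 for day 4 against day 2 PD169316, each highest without day 0 replicate 1. Of all 10574 probes, 2191, 4602 and 2363 were called in these comparisons without that array. In day 4 against day 1 PD169316, 5089 were called with only the arrays compared and 6212 with array weights. For most other settings the share of all probes is not given beside the kinesin count. With the deposited values the second *Kif11* probe turned to -0.08 in day 2 control against day 0 and to -0.10 in day 1 PD169316 against day 0, *Kif20a* to 0.02 in day 4 against day 1 PD169316, *Kifc1* to 0.04 in day 4 against day 2 PD169316, and *Kifc1* and *Kif23* to 0.01 each in PD169316 against control at day 2. With 75th percentile scaling *Kif2a* turned to -0.02 in PD169316 against control at day 2, and the second *Kif11* probe to -0.05 in day 4 against day 2 PD169316. Leaving out 1 library, day 1 control against day 0 ran from -0.21 to 0.15 for *Kif15*, -0.24 to 0.12 for *Kif23* and -0.27 to 0.02 for *Kif2a*, day 4 against day 1 PD169316 from 0.00 to 0.14 for *Kif2a*, day 4 against day 2 PD169316 from -0.09 to 0.18 for the second *Kif11* probe, and PD169316 against control at day 2 from -0.07 to 0.08 for *Kif2a* and -0.01 to 0.14 for *Kif20a*. Over all probes, the count called at day 1 ran from 236 with the deposited values to 3088 with array weights (1171 as reported), at day 2 from 0 to 3948 with array weights, for the difference between the days from 18 to 2611 (407), for day 2 against day 1 controls from 324 to 3690 (1839), for day 4 against day 2 PD169316 from 279 to 6008 (2459), and against day 0 from 1449 to 4473 for day 1 control (2865), 2035 to 5012 for day 1 PD169316 (3296) and 3518 to 6255 for day 4 PD169316 (5357). Day 4 against day 1 PD169316 ran from 2540 to 6212 (4631).

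With the replicate block, that is the replicate number as a term, the count of kinesin probes was 5 at day 1 and 0 at day 2, and the only call that changed was gained by the second *Kif11* probe in day 4 PD169316 against day 0 (0.39, adjusted p = 0.047). Same-numbered samples deviated together with r from -0.54 to 0.56 (median 0.02 over 45 pairs), and 9 of 18 arrays correlated best with their own number, so the numbers were not taken as pairs. The chip as a block was not run, since the headers used here name no chip. Sample codes in the headers run through day 1 and day 2 first and then through day 0 and day 4. If chips followed that order, their effect could not be told apart from that of the day where these 2 sets are compared. This was not tested. Only 3 arrays a group limit what can be detected, and for the second *Kif11* probe the signal lay close to background.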
